A study of Gallus gallus with 6 samples.

Results

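WNT7B and TCF7L2 are genes of the Wnt signalling pathway, and their differentially methylated regions (DMRs) between lens epithelial and lens fiber cells of the embryonic chick are described here. A DMR is a run of adjacent CG sites whose mCG level, the percentage of DNA copies methylated at the cytosine of a CG, the authors found to differ. The members are all DMRs listed under either gene symbol, 15 of 7621 DMRs in all, with 9 at WNT7B (ENSGALG00000036255) and 6 at TCF7L2 (ENSGALG00000008883). Both genes were picked with their DMRs already known, so their levels are given as a description, without a test. None of the 15 regions was annotated to another gene. The DNA came from White Leghorn embryos at embryonic day 13. Each lens was separated by dissection into its epithelium and its fiber mass, and neither was divided further, so a level averages over epithelial cells from the middle to the rim or over fibers from young to mature. There were 3 biological replicates of each cell type, each a pool from 25 lenses, and both groups were otherwise alike in strain and stage.

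Wnt ligands are secreted, lipid-modified proteins that bind Frizzled receptors together with LRP5 or LRP6. In the canonical branch this binding halts the destruction of beta-catenin, which then enters the nucleus and joins DNA-binding factors of the TCF/LEF family to switch target genes on. Without beta-catenin the same factors recruit TLE corepressors and hold those genes down. WNT7B is one of the ligands and TCF7L2 one of the TCF/LEF factors, so the pair stands at the outer and the nuclear end of the pathway. In the mouse lens, components of canonical Wnt signalling are needed for a normal epithelium, and a polarity branch of the pathway acts in the alignment of fibers.

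For each DMR the authors' table gives 1 mean level per cell type, pooled over the replicates. Levels of single replicates and read depths were not analysed here, so the differences stand without a replicate spread or an interval. A level is also a mean over the cells of a dissected pool, so that a change in all cells and a change in a part of them cannot be told apart. The closest measure of error is a change divided by the average test statistic per CG site. This measure approximates the standard error at 1 site after the authors' smoothing over neighbouring sites. It lay between 1.10 and 4.27 percentage points over the 15 regions, and each change was at least 4.28 times its own value in size. Since regions were listed only where this statistic was large, that ratio is a property of the listing. Expression was not analysed here, so neither the activity of these genes nor the identity of the dissected cells was checked.

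WNT7B was demethylated in fiber cells along most of its listed length. Of its 9 DMRs, 8 were losses, with a lower level in fiber than in epithelial cells, and 1 was a gain. Over all DMRs 13.4% were losses and 86.6% gains. The average change of the gene was -12.1 percentage points, from a mean level of 22.8% in epithelial cells to 10.7% in fiber cells. The regions lay on chromosome 1 of the galGal6 assembly within 24562 bp and held 366 listed CG sites. They reached from the promoter across the transcription start site far into the intronic part of the gene, whose annotation runs towards lower coordinates.

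The region at the transcription start site of WNT7B reached one of the lowest levels in the whole table. It covered 70843598 to 70843772 and was annotated to promoter, start site, 5′ UTR and exon. Methylation stood at 11.8% in epithelial cells and was 4.14-fold lower in fiber cells, at 2.85%. The change of -8.95 percentage points was small, with rank 15 from the smallest among all 1019 losses. Of all 7621 DMRs this region had the second lowest level in fiber cells. Among the 16 losses that overlap a start site it had the lowest level in both cell types, and the next lowest values were an epithelial level of 22.1% and a fiber level of 6.78%.

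A separate promoter loss lay 0.954 kb upstream, measured between centres, from 70844578 to 70844700. Here the epithelial level of 7.91% compared with 3.23% in fiber cells, which is a change of -4.68 percentage points. This was the smallest change of all 1019 losses and the fourth lowest fiber level of all DMRs. Measured as a ratio, the same region was 2.45-fold lower in fiber cells, close to the median of 2.33-fold over all losses. The start region of WNT7B was therefore mostly unmethylated in either cell type, and the differences there are small in percentage points.

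Inside the gene, 2 intronic losses lay close behind the start site. The nearer one, from 70841989 to 70842191, went from 21.5% in epithelial to 10.9% in fiber cells. The other, from 70841644 to 70841869, had 15.3% and 6.29%. They were 119 bp apart and among the densest of the gene, with 22.2 and 20.4 listed CG sites per 100 bp, where the median over all DMRs was 10.3. Listed sites may include both strands of a CG, since their number was even in 68.4% of DMRs. The number of CG pairs may therefore be as low as 50% of the sites given here. The 4 regions at less than 3 kb, the start-site region itself included, thus all lost methylation, by 4.68 to 10.6 percentage points. The gain of the gene lay just beyond this limit, at 3.15 kb.

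**Figure D1:**
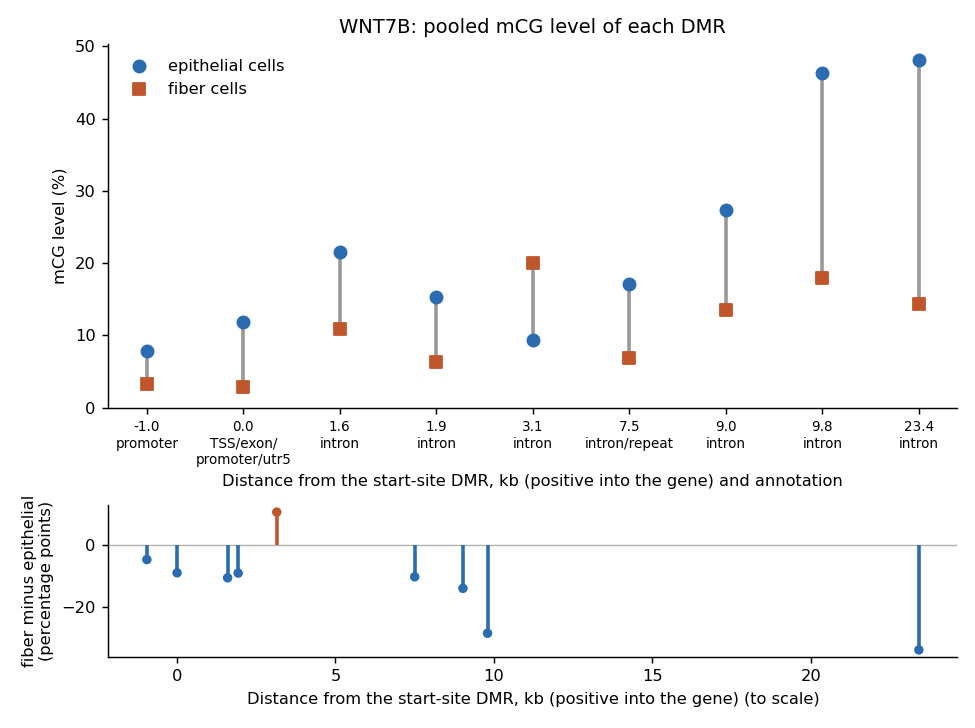
Pooled mCG level in percent of the 9 WNT7B DMRs in epithelial cells (circles) and fiber cells (squares), in order of distance in kb from the start-site DMR, with the annotation of each (upper part), and the change in percentage points at its true distance (lower part). Fiber levels lie below epithelial levels in 8 regions, and the region at 3.1 kb is the exception with 9.42% in epithelial and 20.0% in fiber cells; points are authors' means and carry no error bars.

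The single gain of WNT7B interrupted this series. It lay in an intron 3.15 kb into the gene, from 70840432 to 70840647, and rose from 9.42% in epithelial cells to 20.0% in fiber cells. In epithelial cells it was the region with the second lowest level of the gene, and in fiber cells it was the one with the highest. Losses lay 996 bp away on the side of the start site and 4024 bp away on the other. Of 968 gains in the whole table that had another DMR less than 5 kb away on each side, 5 (0.517%) had a loss on both, and the WNT7B gain is one of these. WNT7B was chosen with its DMRs known, and every other DMR of the gene was a loss. The gain lay between them, so the DMRs beside it had to be losses. The limit of 5 kb was not planned beforehand either, so this share is a description and was not tested.

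The 3 losses farthest into the gene were its largest. The first loss beyond the gain, from 70835962 to 70836407, also overlapped a repeat and went from 17.1% to 6.87%, a change of -10.2 percentage points and within the range of the losses near the start site. At 9.02 kb a loss from 70834403 to 70834918 had 27.4% and 13.5%. This region had the largest area statistic of the gene, a sum over 77 listed CG sites, and ranked 22 among all losses by it. Its statistic per site, -5.82, was smaller in size than those of the 2 losses farther into the gene, -7.09 and -7.90. Only 224 bp further, the loss from 70833591 to 70834178 changed by -28.4 percentage points, with 46.4% in epithelial cells against 18.01% in fiber cells. The most distant loss, 23.4 kb into the gene from 70820139 to 70820400, changed most, from 48.1% to 14.4%.

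Epithelial levels of WNT7B thus spread over a wide range, from 7.91% to 48.1%, whereas fiber levels lay between 2.85% and 20.0%. The 2 losses with the largest changes were also the most CG-poor regions of the gene, with 4.59 and 6.11 listed CG sites per 100 bp. In ratio the 8 losses resembled each other more, from 1.97-fold to 4.14-fold lower, although their changes ran from -4.68 to -33.7 percentage points. A change of at least 20 percentage points in size was found in 4 of the 15 regions of WNT7B and TCF7L2, 2 at each gene, and in 59.5% of all DMRs.

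Losses from such low levels were uncommon in the table. Of all 1019 losses, 148 (14.5%) started from an epithelial level under 30%, a limit that was not planned beforehand. They had a median size of 13.7 percentage points and a median ratio of 2.49-fold. WNT7B held 6 of these, with a median size of 9.63 percentage points and a median ratio of 2.44-fold. The next highest number in a named gene was 4, at BCOR, a Polycomb complex gene, and 10 named genes in all had more than 1. Both losses of TCF7L2 belonged to the same class. These numbers count DMRs as listed, without joining near ones. Some of the 6 at WNT7B lay close together, 119 bp or 805 bp apart. No joined count of this class is given for WNT7B or BCOR, so their order may depend on the counting.

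TCF7L2 differed from WNT7B in direction, level and spacing. Of its 6 DMRs, 4 were gains and 2 were losses, and the average change was 10.2 percentage points, from 27.0% in epithelial to 37.2% in fiber cells. The regions lay on chromosome 6 and spread over 124471 bp, with 5 in introns and 2 in exons, 1 region overlapping both. No DMR of TCF7L2 was annotated to its promoter, start site, 5′ UTR or 3′ UTR.

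The first 3 regions in chromosome order were intronic gains. The region from 28051935 to 28052372 rose from 21.0% to 45.6%. After a stretch of 65499 bp without a DMR, the region from 28117872 to 28118416 had 31.4% and 61.3%, the largest change of the gene with 29.9 percentage points. The region from 28130867 to 28131049 had 32.3% and 51.4%. The median fiber level over all gains, 54.2%, lay within their range.

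The next 2 regions were losses that reached low levels. The first, intronic and overlapping a repeat, covered 28140250 to 28140677 and fell from 24.3% in epithelial cells to 9.29% in fiber cells. It held 100 listed CG sites in 428 bp, the densest of the 15 regions with 23.4 per 100 bp, and only 6 losses in the table had as many sites. Its area statistic, which sums the evidence over sites, ranked 4 among all losses, although its change of -15.0 percentage points was smaller than the median loss of 27.9. The second loss, from 28170894 to 28171203, overlapped an exon and an intron and fell from 17.3% to 5.62%, 3.07-fold lower. That fiber level was the fifteenth lowest of all DMRs.

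The last region, from 28176164 to 28176405, lay in an exon 4960 bp beyond the second loss and was again a gain. It rose to 49.97% in fiber cells from 35.7%, the highest epithelial level of the gene. Along the chromosome TCF7L2 therefore showed gains on either side of a pair of losses, and in fiber cells its levels fell into separate ranges, 45.6% to 61.3% in the gains and 5.62% to 9.29% in the losses. Epithelial levels of gains and losses overlapped, with 21.0% to 35.7% against 17.3% to 24.3%. Because regions were sorted by the direction of change, a split in fiber cells follows largely from that sorting.

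**Figure D2:**
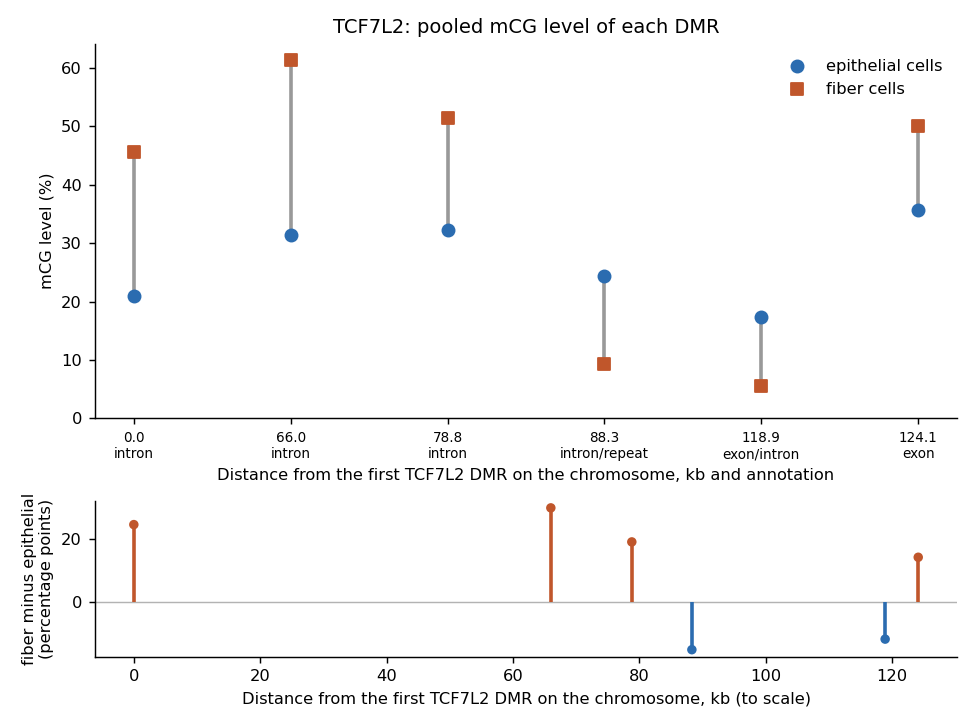
Pooled mCG level in percent of the 6 TCF7L2 DMRs in epithelial cells (circles) and fiber cells (squares), in chromosome order with distance in kb from the first region and annotation (upper part), and the change in percentage points at its true distance (lower part). Fiber levels are 45.6% to 61.3% in the 4 gains and 5.62% to 9.29% in the 2 losses, which are sorted by direction of change. Points are authors' means and carry no error bars.

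The average over a gene, the quantity that the study relates to expression, was taken over regions of mixed direction at both WNT7B and TCF7L2. For WNT7B every DMR but 1 had the sign of the average. For TCF7L2 the average of 10.2 percentage points lay between the gains and the losses, and the nearest region lay at 14.3. It fell to 4.03 percentage points when each region was weighted by its listed CG sites, since the loss with 100 sites then counted most.

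**Figure D3:**
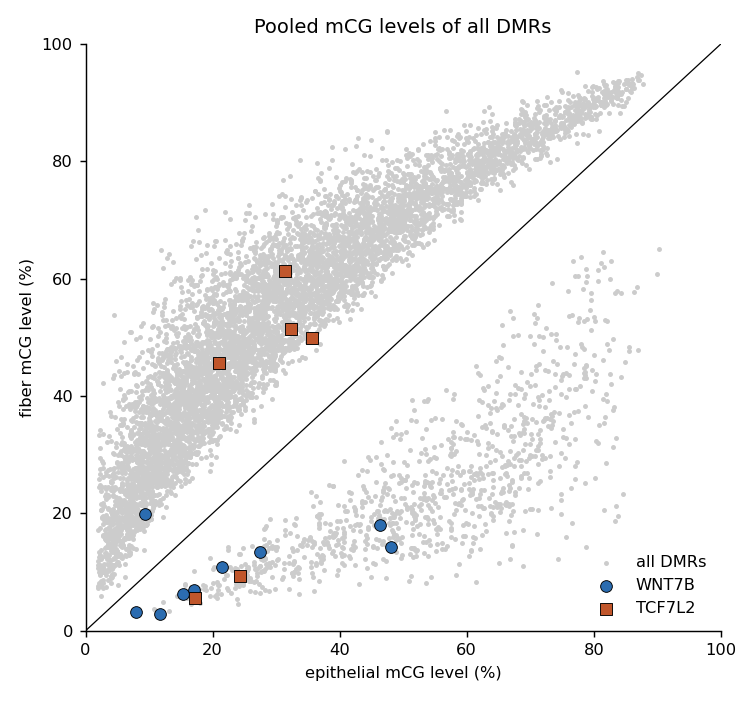
Epithelial against fiber mCG level in percent of all 7621 DMRs (grey), with WNT7B (circles) and TCF7L2 (squares), and the line of equal levels. The losses of both genes with a low epithelial level gather at the lower left end of the cloud of losses, down to 11.8% and 2.85% at the WNT7B start site and 7.91% and 3.23% in its promoter.

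Set beside other genes, WNT7B had more losses than any of the 2939 genes that have a symbol and a DMR. It had 8, and the next genes, AUTS2, BCOR and SPTBN1, had 5 each. This ranking counts DMRs as listed. With same-direction DMRs under 1 kb apart joined, WNT7B had 5 losses, and no joined count is given for the other genes. AUTS2 and BCOR had 14 and 9 gains as well, and SPTBN1 had none. An average change below 0 was found in 16.1% of genes. Among the 166 genes with at least 6 DMRs, WNT7B was the 1 gene with more losses than gains, and its mean fiber level of 10.7% was the lowest, ahead of TINAGL1 with 21.4%. TCF7L2 was among 25 of these genes (15.1%) that had at least 2 losses, while 103 had gains alone. A majority of losses was also found in genes with fewer DMRs. KTN1, RBM24 and SASH1 had 4 losses and no gain, like SPTBN1 with its 5, and PTPRA and NR2F2 had 4 losses among 5 DMRs.

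**Figure D4:**
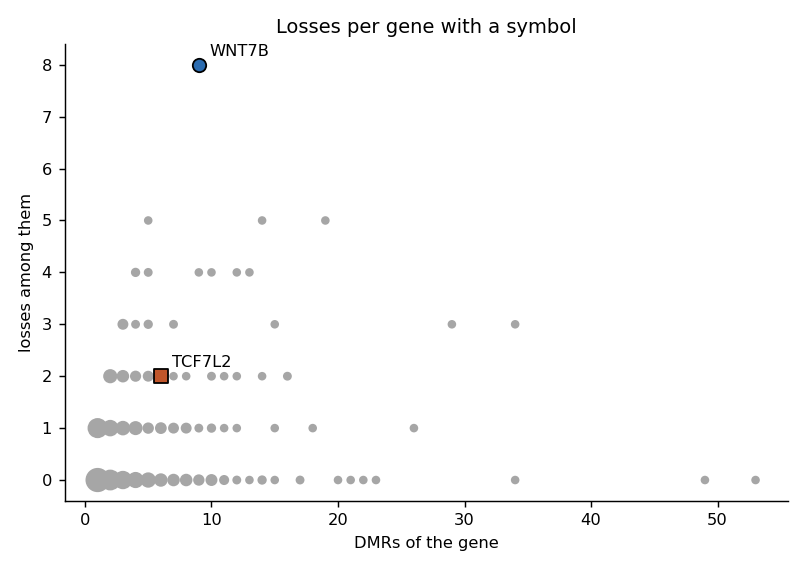
Number of DMRs (horizontal) and number of losses among them (vertical) for the 2939 genes with a symbol and a DMR, where larger grey points stand for more genes. Counted as listed, without joining near DMRs, WNT7B lies apart with 8 losses among 9 DMRs. The next genes have 5 losses, and TCF7L2 lies at 2 of 6.

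Genes most like each member were sought among genes with the same number of DMRs, by the distance between mean levels in both cell types. For TCF7L2 the nearest of 40 genes was NR6A1, an orphan nuclear receptor, at 1.46 percentage points, with means of 25.6% and 36.8% over 5 gains and 1 loss. FMNL1 and MPRIP followed at 5.397 and 5.75 and had gains alone. For WNT7B no gene with 9 DMRs was near. The closest of 13 genes, ZFHX3, ARHGAP26 and PBX3, lay 30.1 to 31.3 percentage points away, and of these PBX3 came closest in direction with 4 losses among 9 DMRs. The distance rests on 2 pooled means per gene, and genes with other numbers of DMRs were left out. NR2F2, with 5 DMRs of which 4 were losses, was nearer to WNT7B in level. Its means were 29.2% in epithelial and 16.0% in fiber cells, against 22.8% and 10.7% at WNT7B.

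Neither gene had another DMR within 50 kb of its outermost regions. The nearest ones were gains on all 4 sides. WNT7B was followed at 253 kb by a DMR of 2 genes without a symbol, with a change of 26.2 percentage points, and the nearest DMR on its other side, at PRR5, was 1076 kb away. TCF7L2 had a DMR of VTI1A at a distance of 304 kb on one side, with 19.5 percentage points. On the other side, 166 kb away, lay a DMR of a gene without a symbol that rose from 10.1% to 49.8%.

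Despite their CG density, none of the 15 regions was annotated to a CpG island, a stretch rich in CG sites, or to an island shore. Of the 15 regions, 5 had at least 20 listed CG sites per 100 bp, 3 at WNT7B and 2 at TCF7L2. Among all DMRs 635 were as dense, and 41.6% of them were annotated to an island or a shore, against 24.9% of all DMRs. Repeats were overlapped by 2 of the 15 regions, 1 loss at each gene, and by 6.76% of all DMRs.

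The remaining pathway was followed with a list of 128 Wnt genes grouped by role, WNT7B and TCF7L2 included. A DMR was listed for 49 of them (38.3%), WNT7B and TCF7L2 by choice, and for 47 of the other 126 (37.3%). Of 14357 protein-coding genes with a symbol in the RefSeq annotation, 19.4% had a DMR under that symbol. The shares are counted differently, since RefSeq holds 116 of the 128 symbols, and DVL3, TLE2 and TLE5 have DMRs but are not among these. Gene length and CG content were not matched, so the shares of the list and its roles were not tested against this background. Without WNT7B and TCF7L2 the list held 116 DMRs at 47 genes, of which 102 were gains and 14 losses, 87.9% gains against 86.6% over all DMRs. Their median change was 21.9 percentage points and that of all DMRs 19.9, so the share and the median were close to the background. With both genes the share of gains was 81.7%.

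Among the ligands, WNT7B was the only one with a negative average over all of its DMRs. DMRs were listed for 4 of 21 ligand genes (19.0%), WNT7B among them by choice, and for 19.4% of genes with a symbol. WNT2B on chromosome 26, which codes for a ligand of the canonical branch, had 7 gains and no loss, with an average change of 22.0 percentage points. Its promoter DMR, from 3492977 to 3493216, rose from 4.005% in epithelial to 18.1% in fiber cells, so the promoters of WNT2B and WNT7B were both low in epithelial cells and moved in opposite directions. The gains inside WNT2B changed by 15.3 to 28.9 percentage points. WNT5B, whose product often acts outside the beta-catenin branch, lay on chromosome 1 like WNT7B and had 3 gains and 2 losses, all intronic, with changes of -25.3 and -19.3 percentage points in the losses. Its average of 1.499 percentage points matched none of them and was -1.20 with the DMRs that changed by at least 20 percentage points. With the area statistic required to reach the median of all DMRs it was -9.94, next to -10.1 for WNT7B, so that the 2 ligands did not differ in sign there. WNT8A had a single gain, from 34.3% to 61.9%.

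Of the genes for enzymes and carriers that handle ligands, 2 of 5 had DMRs (40%, against 19.4% of genes with a symbol). They had 9 gains and 1 loss, a share of gains near the 86.6% over all DMRs. WLS, the carrier that brings Wnt proteins to the cell surface, had 5 gains with an average of 27.7 percentage points. TRABD2B, a protease gene whose human product inactivates Wnt ligands, had 4 gains and 1 loss.

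Receptor genes had 11 gains and 1 loss at 6 of 19 genes (31.6%, against 19.4% of genes with a symbol). Their 91.7% of gains was near the 86.6% over all DMRs. The loss lay in an intron of ROR1, a receptor tyrosine kinase gene, which changed there by -22.9 percentage points and had 3 gains besides. The Frizzled receptor genes FZD2, FZD7 and FZD9 had gains alone, at averages of 18.5, 17.7 and 14.6 percentage points. LRP5, a coreceptor, had an intronic gain from 6.06% to 31.0%. No DMR was listed for ADGRA2 or RECK, which serve as receptor partners for WNT7 ligands in mouse brain vessels, and none for LRP6.

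A group with losses besides WNT7B was that of the R-spondins, secreted proteins that raise the number of Wnt receptors on the cell. With the genes that act on receptor level it had 8 gains and 4 losses at 6 of 9 genes (66.7%, against 19.4%), and 66.7% of gains against 86.6% over all DMRs. RSPO1 had 3 intronic losses and no gain, with an average change of -34.4 percentage points, from 58.9% to 24.5%. RSPO3 had 1 loss, from 35.3% to 15.7%, and RSPO2 had 1 gain across promoter, exon and intron, from 46.9% to 75.1%. These losses began at higher epithelial levels than most of those at WNT7B. The genes of their receptors LGR5 and LGR6 gained 40.9 and 30.9 percentage points on average, and RNF43, which codes for an enzyme that removes Frizzled receptors, gained 28.0.

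For genes of the cytoplasmic relay 18 DMRs were listed at 9 of 21 genes (42.9%, against 19.4% of genes with a symbol), and all 18 were gains, the direction of 86.6% of all DMRs. DVL3, a Dishevelled relay protein gene, had 6 gains with an average of 20.3 percentage points, the same number of DMRs as TCF7L2. NKD1, a feedback inhibitor gene, had 3 gains with an average of 34.5. AXIN1, a scaffold of the complex that destroys beta-catenin, had 2 gains with an average of 16.7. No DMR was listed for CTNNB1, which codes for beta-catenin itself, nor for APC or AXIN2. Of 16 secreted or membrane inhibitor genes, only APCDD1 had DMRs (6.25%, against 19.4% of genes with a symbol), both gains like 86.6% of all DMRs. The planar polarity arm had 14 gains and 3 losses at 5 of 10 genes (50%, against 19.4%), and its 82.4% of gains was near the 86.6% over all DMRs. VANGL1, VANGL2, CELSR1 and DAAM1 had averages from 15.9 to 22.7 percentage points, and PRICKLE2, with 2 losses and 2 gains, had -8.27.

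All 4 TCF/LEF genes had a DMR, TCF7L2 by choice, where 19.4% of genes with a symbol had one. TCF7 had 3 gains and no loss, with an average change of 32.1 percentage points, and its promoter DMR rose from 28.4% to 55.4%. LEF1 had 3 gains, of 11.5 to 17.6 percentage points. TCF7L1 resembled TCF7L2 in having both directions, with an intronic loss from 28.1% to 13.5% and an intronic gain from 29.3% to 48.7%. That loss held 24.8 listed CG sites per 100 bp, denser than the losses of TCF7L2. Over the family, 11 DMRs were gains and 3 were losses, 78.6% gains against 86.6% over all DMRs. TCF7L2, chosen with its DMRs known, supplied 4 of these gains and 2 of these losses. The family share is therefore no independent comparison with all DMRs. Each of the 3 losses lay within TCF7L1 or TCF7L2 and started from under 30%.

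Cofactor genes that work with TCF/LEF proteins had 19 gains and 2 losses at 11 of 16 genes (68.8%, against 19.4% of genes with a symbol), and their 90.5% of gains was near the 86.6% over all DMRs. The TLE family genes TLE1, TLE2, TLE3 and TLE5 had gains alone, and TLE1 had the largest change of any DMR on the list, from 12.1% to 61.7%. Losses were found in PYGO1, which codes for a coactivator of beta-catenin, and in 1 of 3 DMRs of CTBP1, a corepressor gene. Of 7 genes often used as Wnt targets, CCND1 alone had DMRs (14.3%, against 19.4% of genes with a symbol), 3 intronic gains like 86.6% of all DMRs.

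**Figure D5:**
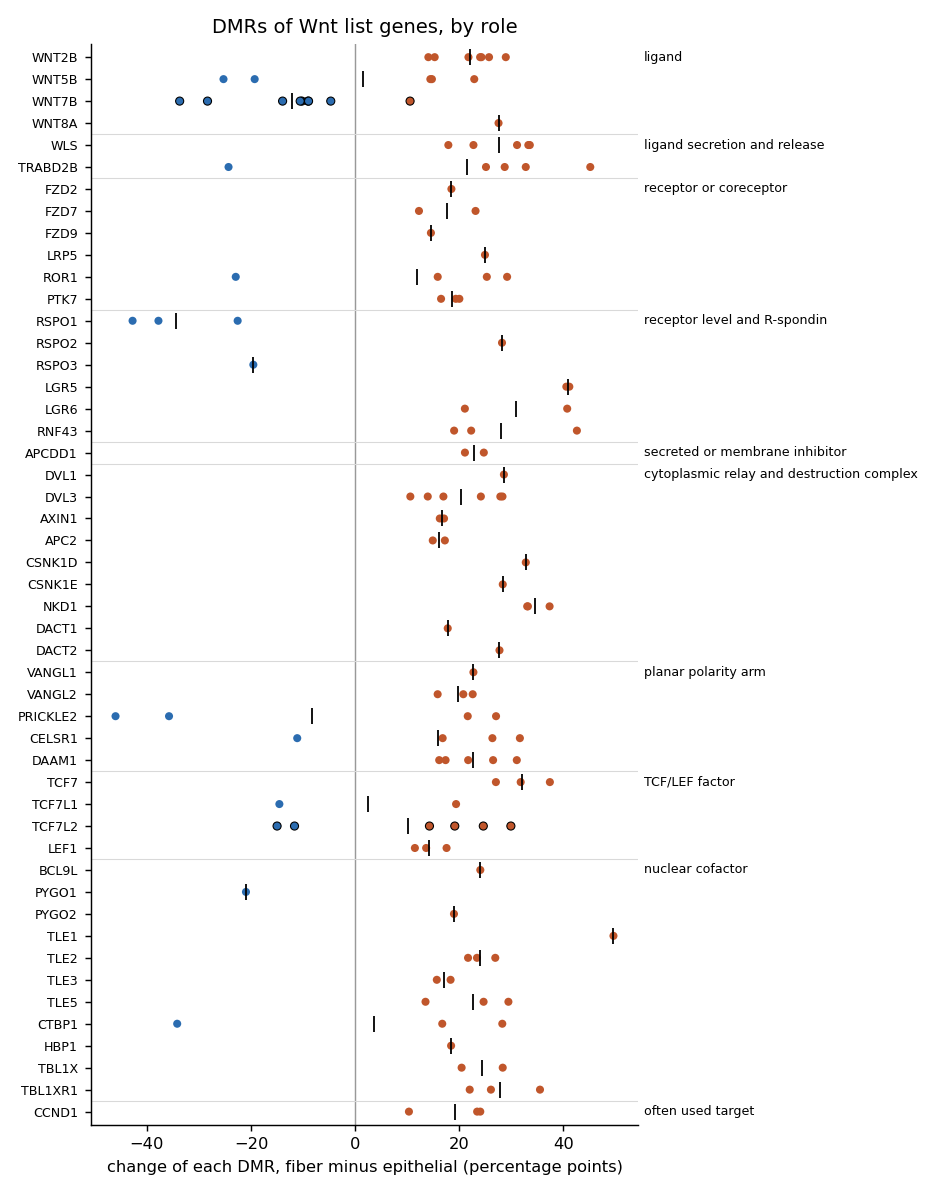
Change of every DMR, fiber minus epithelial in percentage points (horizontal), of the 49 Wnt list genes with a DMR, grouped by role; black bars mark the average of a gene and outlined points belong to WNT7B and TCF7L2. Most points lie at gains, while WNT7B has 8 of its 9 points and RSPO1 all 3 of its points at losses.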

How the data were processed

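Bisulfite sequencing was done by the authors on 6 samples, 3 of each cell type. Reads were trimmed with Trimmomatic and aligned to galGal6 with Bismark, and DMRs were called with DSS, which smooths over neighbouring CG sites and tests each site with a beta-binomial model (versions are not given in the sources used here). Smoothing makes near sites alike, and only regions past a p threshold are listed. The deposited levels are fractions, a mean per cell type pooled over replicates, so they carry neither depth nor replicate spread. Both enter through the area statistic and the choice of listed regions, since DSS takes account of them. The deposited area statistic is a score, the summed Wald statistics of a region. The authors' own column of differences was not used. Counted from the mean levels, 6602 DMRs were gains and 1019 losses, which differs slightly from the numbers that the study reports.

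The 13180 annotation lines were joined to 7621 DMRs. Levels were expressed in percent, with changes taken as fiber minus epithelial. Listed CG sites were even in number in 68.4% of DMRs and may include both strands of a CG, so densities and site totals are not numbers of CG pairs. DMRs were matched by symbol or alternate symbol. Of 128 Wnt list symbols, 116 were found in the RefSeq gene table of another assembly, GRCg7b, from which only names were used. The members and lists were chosen with earlier results of these data known. Named were every member DMR, some of the list genes with a DMR (others enter the counts only), the 3 genes nearest to each member, and neighbours. BCOR, AUTS2, SPTBN1, KTN1, RBM24, SASH1, PTPRA, NR2F2 and TINAGL1, and list genes without a DMR, were named after values were seen. Limits such as 3 kb and 5 kb for distance and 30% for a low epithelial level were not planned beforehand. Since members were chosen on the same contrast, no test was run. Calculations used Python 3.11.15, NumPy 2.4.6, pandas 2.3.3, statsmodels 0.14.6 and matplotlib 3.10.9, and were checked on simulated data. Alternatives were a minimum area statistic, change or number of CG sites, joining of near DMRs, weighting, matching by identifier and leaving out regions, and, chosen after seeing the data, averages of the other list genes, the list without both members and the joined share over all DMRs. No sequences are shown, since none of this assembly was used here.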

Additional observations from a re-analysis of the deposited data

How the results depend on the processing

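No paired analysis was possible because the table used here gives no level per replicate. The averages of WNT7B and TCF7L2 kept their direction under every alternative run. Averages of the 47 other list genes were recomputed after seeing the data. Of these, 37 had gains only and 3 losses only, so no filter could change their sign. Among the 7 with both directions, 2 reversed. WNT5B turned from 1.499 to -1.20 percentage points with a minimum change of 20 and to -9.94 with the area statistic at or above its median, and CTBP1 turned from 3.61 to -2.96 with that minimum change. The minimum change left 2 DMRs at WNT7B, both losses, with an average of -31.0 percentage points, and 2 at TCF7L2, both gains, with 27.3, so the small losses of both genes and the WNT7B gain drop out by construction. With the area statistic at or above its median, WNT7B averaged -10.1. Weighting by listed CG sites moved TCF7L2 to 4.03. Leaving out each region in turn gave -14.9 to -9.40 for WNT7B, without the gain and without the most distant loss, and 6.28 to 15.3 for TCF7L2, without the largest gain and without the larger loss. Joining near losses left 6 DMRs at WNT7B, 5 of them losses. The share of gains in the Wnt list stayed between 81.7% and 85.2%. Its 95% Wilson interval in the full table, 74.2% to 87.4%, covers the counting of DMRs only and includes WNT7B and TCF7L2. The interval takes DMRs as independent, though many share a gene. All settings reuse the same DMRs, so shares inside the interval are no measure of stability. The share of gains lay below that of all DMRs in the full table (81.7% against 86.6%), with the area statistic (83.1% against 88.2%), with at least 10 sites (81.7% against 86.8%) and after joining (83.0% against 85.6%), and above it under the minimum change (85.2% against 83.1%). Without both genes it was 87.0% to 92.3% and above that of all DMRs in the full table and these 4 settings. Regions that did not pass the authors' p threshold are not listed, so a gene without a DMR is not shown to be unchanged.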
